A study of Mus musculus with 6 samples.

Results

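The MAPK feedback phosphatases and Sprouty genes described here are 10 genes whose products act back on the kinases that switch them on: the dual-specificity phosphatases Dusp1, Dusp4, Dusp5, Dusp6, Dusp7 and Dusp10, the Sprouty genes Spry2 and Spry4, and their Spred relatives Spred1 and Spred2. They were taken by gene name from a table of read counts with 55367 gene names, and all 10 were among the 14916 genes with enough counts to be tested. The counts came from RNA sequencing of primary mouse keratinocytes, the epithelial cells of the epidermis, isolated from newborn pups of Ppp1r13l flox/flox;Cre+ERT mice on a mixed C57BL/6 and 129/Sv background. In these mice tamoxifen activates a Cre recombinase driven from Rosa26, which deletes the floxed part of Ppp1r13l, the gene that encodes iASPP, an inhibitor of p53. Each of 3 batches of isolated cells was split into a pair of cultures, so there were 3 libraries per condition. The medium given at 24 h held tamoxifen in the iASPP KO culture and none in the iASPP WT culture. Per the study's methods the cultures were then kept for several days. All cultures carried the floxed alleles and the Cre, and the WT cultures received no tamoxifen, so the deletion and the drug cannot be told apart. All cultures were grown in low-calcium medium with EGF, a ligand that itself signals through ERK, and with hydrocortisone, insulin and cholera toxin.

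Growth factor signals pass from receptors such as EGFR through Ras, Raf and MEK to the MAP kinase ERK, while stress and inflammatory signals reach the MAP kinases JNK and p38. Active kinases induce their own brakes. DUSP proteins remove the activating phosphates from MAP kinases: DUSP6 and DUSP7 act on ERK in the cytoplasm, DUSP5 on ERK in the nucleus, DUSP4 in the nucleus on ERK and JNK, DUSP1 in the nucleus on all 3 kinases, and DUSP10 mainly on p38 and JNK. Sprouty and Spred proteins act higher up, where they restrain the step from the receptor to Ras and Raf. Several of these genes are used as readouts of ERK activity because their short-lived mRNAs follow it.

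Of the 10 genes only Dusp4 passed the test between KO and WT, and it was higher in the KO culture of each of the 3 batches, by 2.68-fold over all. Dusp1 and Dusp5 were each about doubled in the KO cultures of batches 1 and 2 but not in batch 3, where Dusp1 was lower in the KO culture. Dusp6 was lower by value in all 3 batches without passing the test, and Dusp7, Dusp10, Spry2, Spry4, Spred1 and Spred2 did not pass it either. Of 26 other ERK-responsive genes 4 were higher in KO cells, Ier3, Egr1, Ereg and Junb, and 22 did not pass. Of 22 genes of the kinase cascade only the receptor gene Egfr was called, and it was lower. Egr1, Ereg, Junb and Egfr did not pass the test when batch 1 or batch 2 was left out.

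The upstream sequences of Dusp1 and Dusp5 are shown because these 2 genes shared the batch-dependent change. They are 200 bases of the RefSeq promoter window on GRCm38.p6, from 250 to 51 bases before the annotated start. The Dusp5 stretch lies before the gene's span in the count table's annotation. That annotation has Dusp1 exons farther upstream, so the Dusp1 stretch lies before the RefSeq start but within the gene's span in the count table. The Dusp1 stretch is chr17:26508523-26508722 on the minus strand and the Dusp5 stretch is chr19:53528895-53529094 on the plus strand. Capitals mark the only match to TGACGTCA, the cAMP response element to which CREB and ATF proteins bind, and the match lies 143 bases before the Dusp1 start.
Dusp1: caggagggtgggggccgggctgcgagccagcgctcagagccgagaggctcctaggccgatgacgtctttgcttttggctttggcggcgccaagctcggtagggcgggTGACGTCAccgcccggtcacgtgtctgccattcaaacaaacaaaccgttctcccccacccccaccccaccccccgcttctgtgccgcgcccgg
Dusp5: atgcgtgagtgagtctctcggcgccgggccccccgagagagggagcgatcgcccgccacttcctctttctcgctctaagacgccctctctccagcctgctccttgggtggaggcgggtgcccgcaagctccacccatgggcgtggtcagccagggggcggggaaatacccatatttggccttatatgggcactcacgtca
A promoter window of 300 bases was given for 8 of the 10 genes, not for Dusp4 and Spry4, and 3 motifs were searched on both strands. TGACGTCA was found in 1.79% of 32851 RefSeq promoter windows and in that of Dusp1 alone among the 8. The AP1 motif TGANTCA, in 7.81% of the windows, and the ETS motif CCGGAAG, in 8.86%, were in none of the 8. Neither TGANTCA nor CCGGAAG is contained in TGACGTCA. A match describes the letters only, and the absence of one says nothing about a factor's binding.

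Library totals ran from 20202517 to 25157117 counts, at which 3 counts are worth 0.123 to 0.141 CPM (the read count scaled to a common library total, with TMM factors). Ppp1r13l, the deleted gene, had 320, 395 and 139 counts in the KO libraries of batches 1, 2 and 3 and 697, 1100 and 472 in the WT libraries, a log2 fold change of -1.45 (SE 0.18; edgeR's quasi-likelihood test, adjusted p = 0.00296), with reads of all its exons counted and not of the deleted ones alone. The summed level of 10 keratinocyte markers was 27970 to 30554 CPM in KO and 29029 to 33996 CPM in WT libraries, most of it from Krt14 and Krt5, while Krt15 was at 1.85 to 21.8 CPM. Both libraries of batch 3 stood apart from those of the other batches. The summed level of 10 fibroblast markers was 490 CPM in KO and 706 CPM in WT of batch 3, against 41.5 to 56.2 CPM in the other 4 libraries, and each of the 10 differed between batches in the test of batch described below. The summed level of 8 suprabasal keratinocyte markers was 1031 CPM in KO and 1074 CPM in WT of batch 3, against 2730 to 3449 CPM in the other 4 libraries. The summed level of 7 melanocyte markers set batch 2 apart instead, at 431 CPM in KO and 367 CPM in WT. The other 4 libraries were at 894 to 1126 CPM. In such bulk samples fewer cells of a type and less RNA per cell cannot be told apart. The part of any of these differences in the results was not tested. Values are therefore given by batch, and fitted changes of the 10 genes also without batch 3.

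The nuclear phosphatase gene Dusp4 (chr8:34807297-34819894, plus strand) was at 78.2, 144 and 30.4 CPM in the KO libraries of batches 1, 2 and 3. The WT libraries of the same batches were at 31.2, 49.6 and 11.6 CPM. The conditions overlapped when batches were ignored, since the KO culture of batch 3 lay below the WT cultures of batches 1 and 2, but within every batch the KO culture was the higher one. The log2 differences within batches were 1.32, 1.54 and 1.38, and the fitted log2 fold change was 1.42 (SE 0.13, 95% interval 1.14 to 1.70; edgeR's quasi-likelihood test with batch in the model, Benjamini-Hochberg adjusted p = 0.00109). Without batch in the model the log2 fold change was 1.45 with an adjusted p = 0.973 (edgeR), since the spread between batches then counts as error. Without batch 3 it was 1.44 and still passed the test.

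Dusp1, an immediate early gene (chr17:26505590-26562128, minus strand), was at 27.0, 32.8 and 9.47 CPM in the KO libraries and 12.1, 15.4 and 18.4 CPM in the WT libraries. In batches 1 and 2 the KO culture had 2.24 and 2.13 times the WT level, while in batch 3 it had 0.516 times that level. The fitted log2 fold change over all batches was 0.47 (SE 0.36) and did not pass the test (edgeR's quasi-likelihood test, adjusted p = 0.601).

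Dusp5 (chr19:53529109-53542431, plus strand), an ERK phosphatase of the nucleus, was at 24.0, 47.0 and 13.0 CPM in the KO libraries and 9.98, 23.8 and 14.6 CPM in the WT libraries. The KO culture had 2.41 and 1.97 times the WT level in batches 1 and 2 and 0.893 times that level in batch 3. The fitted log2 fold change was 0.70 (SE 0.26, 95% interval 0.13 to 1.27) and did not pass after adjustment over all genes (edgeR's quasi-likelihood test, adjusted p = 0.189).

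**Figure D1:**
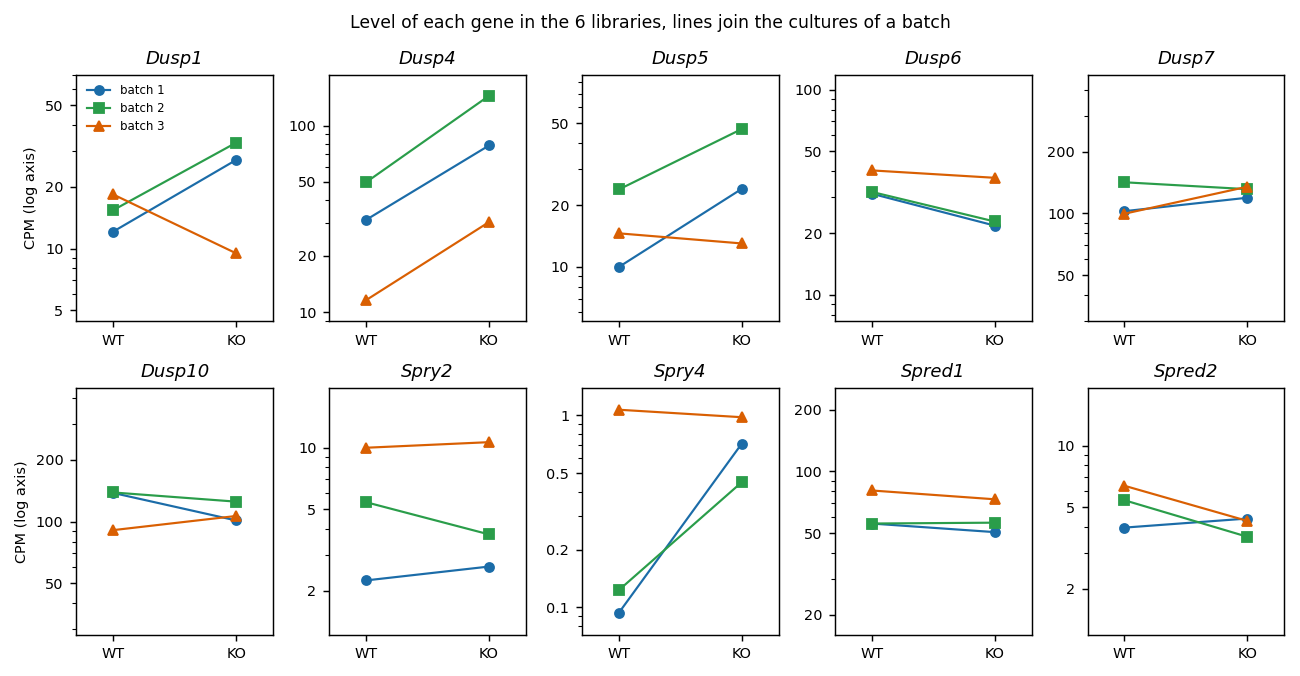
Level of each of the 10 genes in the 6 libraries, in CPM on a log axis of its own range, with a line from the WT to the KO culture of a batch. The 3 lines of Dusp4 rise side by side at different heights, while for Dusp1 and Dusp5 the lines of batches 1 and 2 rise and that of batch 3 does not.

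Whether the KO effect of batch 3 differed from that of batches 1 and 2 was tested as an interaction, an alternative added after the values had been seen. The difference in log2 fold change was -2.08 for Dusp1 (SE 0.39; edgeR's quasi-likelihood test, adjusted p = 2.24e-05) and -1.28 for Dusp5 (SE 0.37, adjusted p = 0.0225). It was -0.04 for Dusp4 (SE 0.27, adjusted p = 0.986), and none of the other 7 genes passed either, among them Spry4 at -2.45 (SE 2.60). So 2 of 10 genes were called, beside 2.7% of all tested genes. With 1 culture per condition and batch this test has 1 residual degree of freedom and leans on the spread shared by all genes. Leaving out batch 3, the log2 fold change was 1.13 for Dusp1 (edgeR, adjusted p = 3.83e-06) and 1.12 for Dusp5 (adjusted p = 6.93e-07). So 3 of the 10 genes were higher in KO, beside 5.2% of 15261 genes tested. Without batch 1 it was 0.09 for Dusp1 and 0.43 for Dusp5, and without batch 2 it was 0.12 and 0.55. None of these passed (edgeR, adjusted p = 0.600 to 0.979). A fit without a batch also has 1 residual degree of freedom, and batch 3 was singled out by its values.

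Genes of the lists described below also differed in batch 3. In the same interaction test, 3 of 26 ERK output genes were called, Hbegf, Emp1 and Jun, each with the lower log2 fold change in batch 3. Jun was lower in KO in every batch, with log2 differences of -0.39, -0.14 and -1.11, so its fall was largest in batch 3. Hbegf, an EGFR ligand gene, was at 85.3, 119 and 31.7 CPM in KO and 45.6, 67.9 and 47.9 CPM in WT libraries, so its KO culture was the higher one in batches 1 and 2 and the lower one in batch 3. Zfp36, which encodes an mRNA decay factor induced by MAP kinases, and Dusp14 were the only genes called in their lists of 19 and 15. Map2k6, a kinase gene of the p38 cascade, was the only gene called of 18 in its list (edgeR, adjusted p = 0.0373). Each again had the lower log2 fold change in batch 3. None of the 22 genes of the Ras-ERK cascade was called. Among the marker lists the log2 fold change was lower in batch 3 for Pdgfra, Flg and Dsc1. It was higher in batch 3 for Krt10 (by 1.66, edgeR, adjusted p = 9.73e-06) and Col17a1 (by 0.83, adjusted p = 0.00296). The log2 differences within batches were -0.58, -0.48 and -1.67 for Flg, a fall that was larger in batch 3. For Krt10 they were -2.01, -1.58 and -0.15, a fall that was smaller there. These genes outside the 10 were named after their values had been seen.

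**Figure D2:**
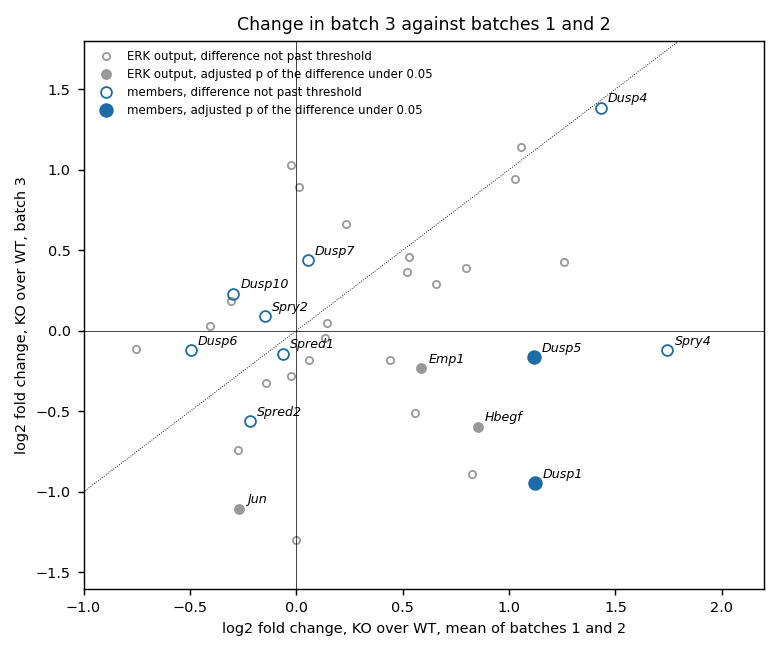
Log2 fold change (KO over WT) in batch 3 against the mean of batches 1 and 2, for the 10 genes (blue) and 26 ERK output genes (grey), with the dotted line where both are equal. Dusp4 lies on the line, whereas Dusp1 and Dusp5 lie below it, with a log2 fold change near 1 on the horizontal axis and of -0.95 and -0.16 on the vertical axis. Spry4, which had few counts, also lies below the line, and its difference did not pass the test.

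Dusp6 (chr10:99263231-99267489, plus strand), the ERK phosphatase of the cytoplasm, was at 21.7, 22.8 and 37.2 CPM in the KO libraries and 31.1, 31.7 and 40.4 CPM in the WT libraries. The KO culture was the lower one in every batch, with log2 differences of -0.52, -0.48 and -0.12, although the ranges of the conditions overlapped because both libraries of batch 3 were high. The fitted log2 fold change was -0.37 (SE 0.15, 95% interval -0.71 to -0.03), which did not pass either (edgeR's quasi-likelihood test, adjusted p = 0.257). Without batch 3 it was -0.50 (edgeR, adjusted p = 0.0781).

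The genes whose log2 CPM was most like that of Dusp6 over the 6 libraries, among 10147 genes at 5 CPM or more on average, were the mitotic genes Birc5, Ttk and Kif20a, each with a Pearson correlation of 0.997 to 0.998. The 6 points share 3 batches, and 179 genes had a correlation over 0.95, so this describes the profile only. The 10 cycling markers had summed levels of 235 to 644 CPM in KO and 462 to 1152 CPM in WT libraries, the highest of each condition in batch 3. Of these 10 markers 8 fell in KO cells (edgeR, adjusted p under 0.05, median log2 fold change -1.15), beside 1.95% of all tested genes. Whether this has a part in the Dusp6 values was not tested.

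Dusp7 and Dusp10 had the highest mean levels per exon length of the 10 genes, and neither passed the test. Dusp7 (chr9:106368632-106375724, plus strand), a relative of Dusp6 that also acts on ERK, was at 119, 131 and 135 CPM in KO and 103, 142 and 99.6 CPM in WT libraries. Its log2 fold change was 0.18 (SE 0.13, 95% interval -0.11 to 0.47; edgeR's quasi-likelihood test, adjusted p = 0.564). Dusp10 (chr1:184013302-184075636, plus strand), the phosphatase of p38 and JNK, was at 101, 125 and 107 CPM in KO and 138, 139 and 90.9 CPM in WT libraries. It was lower in the KO culture of batches 1 and 2 and higher in that of batch 3, with a log2 fold change of -0.12 (SE 0.14, 95% interval -0.43 to 0.19). Without batch 3 the log2 fold change was 0.05 for Dusp7 and -0.30 for Dusp10, and neither passed the test.

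Among the inhibitors that act above the kinases, Spry2 (chr14:105891947-105896819, minus strand) was at 2.63, 3.77 and 10.6 CPM in KO and 2.25, 5.41 and 9.98 CPM in WT libraries. Both cultures of batch 3 were the highest of their condition, and the log2 fold change was -0.07 (SE 0.31; edgeR's quasi-likelihood test, adjusted p = 0.941). Spred1 (chr2:117121374-117182279, plus strand), which had the highest mean level per exon length of these inhibitors, was at 50.5, 56.2 and 73.0 CPM in KO and 55.6, 55.6 and 80.6 CPM in WT libraries. Its log2 fold change of -0.09 (SE 0.12) had a 95% interval of -0.36 to 0.18, so its bounds lay well below the log2 fold change of Dusp4 (edgeR, adjusted p = 0.791). Without batch 3 the log2 fold change was -0.16 for Spry2 and -0.06 for Spred1, and neither passed the test.

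Spred2 (chr11:19924375-20024026, plus strand) was at 4.41, 3.59 and 4.29 CPM in KO and 3.98, 5.41 and 6.37 CPM in WT libraries, with a log2 fold change of -0.34 (SE 0.34; edgeR's quasi-likelihood test, adjusted p = 0.705). Without batch 3 it was -0.22. Of its windows of read length 2.3% also occur in Gm14612, so that its counts may miss some reads. Spry4 (chr18:38586247-38601415, minus strand) had 16, 10 and 23 counts in the KO libraries and 2, 3 and 24 in the WT libraries. The KO to WT ratio of its level was 7.61 in batch 1 (95% interval 1.79 to 68.2), 3.65 in batch 2 (0.939 to 20.6) and 0.914 in batch 3 (0.493 to 1.69), intervals that cover counting error only. Both libraries of batch 3 were higher than the others of their condition, and the fitted log2 fold change of 1.37 (SE 1.15) did not pass the test (edgeR, adjusted p = 0.633), nor did that of 2.33 without batch 3 (SE 2.05). The genes at 5 CPM or more most like Spry4 in log2 CPM were Vrk3, Rpl32 and Acbd5 (Pearson correlation 0.983 to 0.986, 6 libraries), a description that rests on low counts of Spry4.

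**Figure D3:**
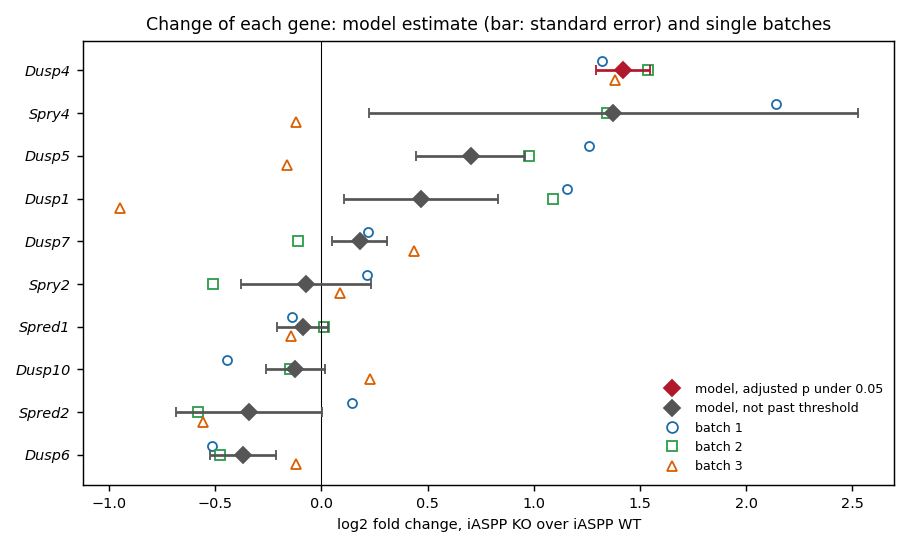
Log2 fold change of KO over WT for the 10 genes: the diamond is the model's estimate, the bar its standard error, and the open symbols are the single batches. The symbols of Dusp4 lie close together between 1.32 and 1.54, and those of Dusp1, Dusp5 and Spry4 split with batch 3 below 0.

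Counted over the 10 genes, 1 was higher in KO, none lower and 9 not called (edgeR's quasi-likelihood test, adjusted p under 0.05). Over all tested genes the shares were 2.17% higher and 1.95% lower, 4.12% in all. At an unadjusted p under 0.05 there were 3 of 10 genes (Dusp4, Dusp5 and Dusp6), beside 16.7% of all genes. The KO culture differed in the same direction in every batch for 2 genes, Dusp4 and Dusp6, beside 39.3% of all genes. In none of the 10 did the libraries of the conditions lie apart without overlap, which 10.7% of all genes did. The median log2 fold change was 0.05 over the 10 genes, 0.32 over the 6 Dusp genes and -0.08 over the 4 Spry and Spred genes, beside 0.01 over all tested genes. The median over the 10 genes had no stable sign: it was -0.0051 without batch 3 and -0.066 where 10 counts were required in every library, which leaves out Spry4.

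The level of some of the 10 genes differed between batches as well. A joint test of the batch terms, which sets both cultures of a batch against those of the others, called 3 of the 10 genes, Dusp4, Dusp5 and Spry2, beside 15.8% of all genes (edgeR's quasi-likelihood test, adjusted p under 0.05). Dusp4 was higher in batch 2 than in batch 1 by a log2 difference of 0.78 and lower in batch 3 than in batch 1 by a log2 difference of -1.40 (adjusted p = 8.1e-05). Spry2 ran the other way, with log2 differences from batch 1 of 0.90 in batch 2 and 2.07 in batch 3 (edgeR, adjusted p = 0.0108). Dusp5 was higher in batch 2 than in batch 1 by a log2 difference of 1.09, with a log2 difference of -0.15 in batch 3 (adjusted p = 0.0294). Thus the batch with the lowest Dusp4 level had the highest Spry2 level, in both conditions.

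Levels of different genes were compared per kilobase of annotated exon (RPKM, from the same counts and scaling). In WT cells the order was Dusp10 (40.3 RPKM ± 9.01, SD, n = 3), Dusp7 (34.2 ± 7.02), Dusp4 (11.2 ± 6.94), Dusp6 (11.0 ± 1.66) and Spred1 (9.43 ± 2.13). Then came Dusp5 (6.52 RPKM ± 2.85), Dusp1 (4.61 ± 0.946), Spry2 (2.82 ± 1.86), Spred2 (1.14 ± 0.260) and Spry4 (0.0901 ± 0.117). Only the steps from Dusp7 to Dusp4 and from Spred2 to Spry4 separated neighbours whose ranges over the 3 libraries did not overlap.

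In KO cells Dusp7 (38.3 RPKM ± 2.45, SD, n = 3) and Dusp10 (36.5 ± 4.12) still led, and Dusp4 (30.8 ± 20.9) overlapped with them. Below them stood Dusp5 (11.3 RPKM ± 7.02), Spred1 (8.83 ± 1.73), Dusp6 (8.69 ± 2.76) and Dusp1 (6.98 ± 3.67). Spry2 (2.72 RPKM ± 2.07), Spred2 (0.887 ± 0.0957) and Spry4 (0.150 ± 0.0555) came last, and only the steps down to Spred2 and to Spry4 were between ranges that did not overlap. The gap between Dusp7 and Dusp4 that was clear of overlap in WT cells was not so in KO cells.

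**Figure D4:**
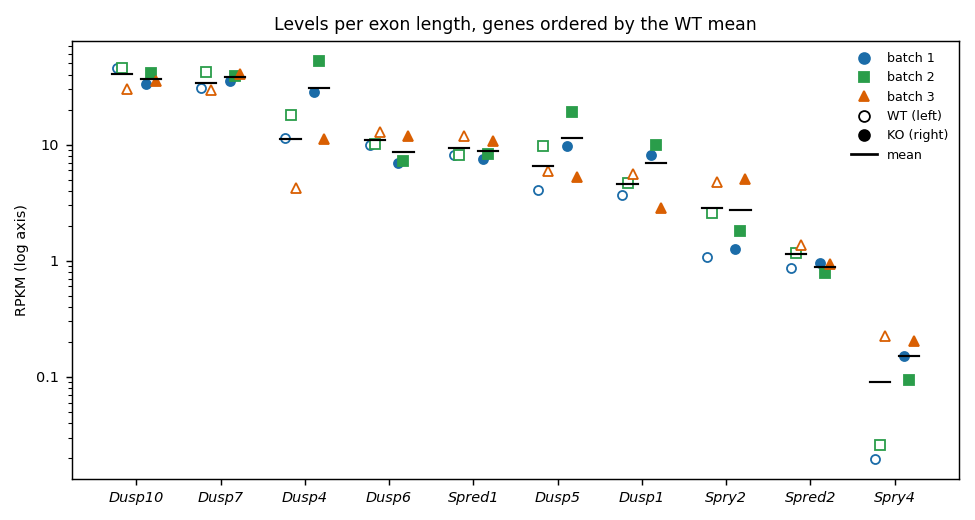
RPKM of the 10 genes on a log axis, ordered by the WT mean, with open symbols for WT and filled symbols for KO libraries, a symbol shape per batch and a bar for the mean of 3. Dusp10 and Dusp7 lie near 40 RPKM, Spry4 below 1 RPKM in every library, and Dusp4 spans 4.23 to 52.7 RPKM over the 6 libraries.

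Of 17 other genes of the Dusp and Sprouty families 15 could be tested, with a median log2 fold change of 0.13. In KO cells 1 was higher and none lower, beside 2.17% and 1.95% of all tested genes. The gene that passed was Dusp18, a phosphatase gene, at 11.5, 14.9 and 6.67 CPM in KO and 4.87, 5.87 and 1.78 CPM in WT libraries (log2 fold change 1.48, SE 0.27; edgeR's quasi-likelihood test, adjusted p = 0.0171). Its KO culture was the higher one in every batch, and the call was lost without batch 2 (edgeR, adjusted p = 0.0824). Of 19 tested genes for other brakes on the pathway, among them Errfi1, Cbl, Nf1 and Socs3, none passed in either direction (edgeR, median log2 fold change 0.04). At an unadjusted p under 0.05 there were 2 of 19, beside 16.7% of all genes.

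Of 26 ERK output genes, which growth factor signals induce, 4 rose in KO cells, none fell and 22 did not pass. Over all tested genes 2.17% were higher and 1.95% lower. The list's median log2 fold change was 0.25, beside 0.01 over all genes. Without batch 1 that median was 0.14, and without batch 2 it was 0.11. By value 17 of the 26 were above 0. Jun (log2 fold change -0.55, edgeR, adjusted p = 0.120) and Epha4 (-0.43, adjusted p = 0.0983) were lower in KO in every batch without passing. Ier3, an immediate early gene that modulates cell survival, was at 623, 853 and 381 CPM in KO and 277, 445 and 172 CPM in WT libraries, a log2 fold change of 1.08 (SE 0.11; edgeR's quasi-likelihood test, adjusted p = 0.00122). The transcription factor gene Egr1 was at 20.8, 32.0 and 11.2 CPM in KO and 9.23, 17.2 and 5.79 CPM in WT libraries (log2 fold change 1.01, SE 0.19). As with Dusp4, batch 3 was the lowest of each condition for both genes, and the KO culture was the higher one in every batch.

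Ereg, which encodes the EGFR ligand epiregulin, was at 56.0, 98.5 and 17.4 CPM in KO and 19.7, 48.7 and 12.9 CPM in WT libraries (log2 fold change 1.00, SE 0.19). Junb, which encodes an AP1 subunit, was at 516, 585 and 363 CPM in KO and 339, 429 and 265 CPM in WT libraries, a log2 fold change of 0.50 (SE 0.11; edgeR, adjusted p = 0.0296). Both were higher in the KO culture of every batch, and both were lowest in batch 3 within each condition. Ier3 passed the test whichever batch was left out, while Egr1, Ereg and Junb passed it without batch 3 but not without batch 1 or batch 2 (edgeR, adjusted p = 0.0825 to 0.190).

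The median log2 fold change was -0.04 over 22 genes of the kinase cascade itself, from the receptors to ERK and its substrates. None of them rose and 1 fell, beside 2.17% and 1.95% of all tested genes. It was Egfr, the EGF receptor gene, at 210, 172 and 117 CPM in KO and 267, 253 and 169 CPM in WT libraries (log2 fold change -0.48, SE 0.11; edgeR's quasi-likelihood test, adjusted p = 0.0400). The call was lost without batch 1 (edgeR, adjusted p = 0.102) and without batch 2 (adjusted p = 0.280). Of 18 tested genes of the JNK and p38 cascades none passed in either direction (edgeR, median log2 fold change -0.14, and -0.045 without batch 3). At an unadjusted p under 0.05 there were 5 of 18, beside 16.7% of all genes.

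**Figure D5:**
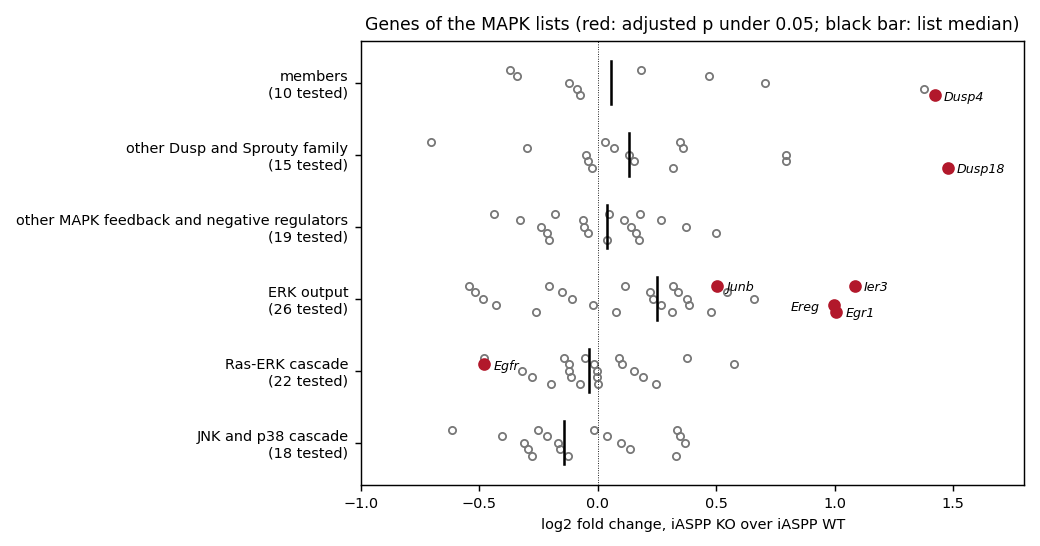
Log2 fold change of KO over WT for the tested genes of each list, with a point per gene, red where the adjusted p was under 0.05, and a black bar at the list's median. Named points lie to the right for Dusp4, Dusp18 and 4 ERK output genes, and to the left for Egfr.

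Markers of other cells and states were counted in the same fit, beside the cycling genes above. In that fit 2.17% of all tested genes were higher in KO and 1.95% lower. Of 10 fibroblast markers 2 fell in KO cells (Col3a1 and Col1a2; edgeR, adjusted p under 0.05) and none rose. Of 7 tested macrophage and leukocyte markers only Csf1r rose, with summed levels over 10 genes of 67.4 to 86.4 CPM in KO and 45.7 to 69.9 CPM in WT libraries. Of these markers Lyz2, the lysozyme gene of myeloid cells, was at 59.1 CPM in KO and 49.6 CPM in WT of batch 3 against 1.11 to 4.81 CPM in the other 4 libraries. Cd68 and Csf1r went the other way, at 29.8 to 42.5 CPM and 9.09 to 28.8 CPM in batches 1 and 2 and at 8.95 to 10.9 CPM and 1.92 to 5.23 CPM in batch 3. Ptprc, the leukocyte marker CD45, was at 2.14 CPM or less in every library. Of 8 suprabasal keratinocyte markers 1 rose (Sbsn) and 2 fell (Krt10 and Flg), and none of 7 melanocyte or 4 tested endothelial markers passed (edgeR; none at an unadjusted p under 0.05). The batch test, which called 15.8% of all tested genes, called all 10 fibroblast markers, 9 of 10 cycling and 7 of 8 suprabasal markers. It called 7 of 10 keratinocyte, 5 of 7 melanocyte, 3 of 7 tested macrophage and leukocyte and none of 4 tested endothelial markers.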

How the data were processed

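The members and lists were chosen with earlier results of these data known, so no count over a list is independent support. RNA depleted of rRNA was sequenced as single 42-nt reads. Per the labels and the study's methods, the authors trimmed reads with Cutadapt 2.10, aligned them to GRCm38 (mm10) with STAR 2.7.3a under GENCODE vM25, and deposited raw read counts per gene name on the gene's strand from featureCounts 2.0.0, with each name's exon length. A second deposited table of the authors' own comparison (fold changes and p-values) was not used. All columns of counts were used.

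Counts were tested in edgeR 4.0.16 (R 4.3.3) with filterByExpr, TMM scaling, glmQLFit and glmQLFTest, batch and condition as terms, and Benjamini-Hochberg adjustment at 0.05 over 14916 genes. The study adjusted for batch, and its design text says that the cells of a batch were split, so replicate numbers pair the cultures. Deviations of same-batch cultures correlated (r 0.603, 0.707 and 0.771 over 8775 genes) and those of other pairs did not exceed 0.311. Cultures of a condition differed by far more than sampling noise (chi-square per gene 40.1 to 169), so none was a copy. CPM use TMM-scaled totals. RPKM divide them by exon length. Within-batch log2 differences use a prior count of 2, and ratios use none. The SE is the log2 fold change over the square root of F. The 95% interval takes a t quantile on the fit's degrees of freedom (2 residual, 8.17 prior). Intervals for Spry4 ratios are exact binomial ones and, as reads carry no molecular tags, cover counting error only. With batch in the model, p-values of KO against WT rest on how far that difference varied between the 3 isolations. They also lean on the spread shared by all genes. Named genes were the 10 genes, Ppp1r13l, up to 4 called genes with the largest change per pathway list, and the 3 genes most like Dusp6 and Spry4. Other genes (interaction calls, markers, uncalled ERK output genes, examples of lists without calls, and those most like Dusp4) were named after their values were seen. Gene positions are those of the count table. Promoter windows (250 bases before to 50 after the start) are RefSeq's. The scripts were tested on simulated data. Alternatives were no batch term, DESeq2 1.42.0, other scalings, filters and dispersion, and leaving out each batch.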

Additional observations from a re-analysis of the deposited data

Results flagged for a closer look

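The KO effect in batch 3 differed from that in batches 1 and 2 for 2 of the 10 genes, by the interaction test added after the values were seen. For Dusp1 the difference of the log2 fold changes was -2.08, with the KO culture higher in batches 1 and 2 and lower in batch 3. For Dusp5 it was -1.28, with the KO culture higher in batches 1 and 2 and near the WT culture in batch 3. The fibroblast marker sum was 490 to 706 CPM in batch 3 and 41.5 to 56.2 CPM in the other libraries, the suprabasal marker sum was 1031 to 1074 CPM in batch 3 and 2730 to 3449 CPM in the others, and the part of either difference in these values was not tested.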

How the results depend on the processing

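Dusp4 passed the test in 9 of 9 alternatives that kept the batch term, with log2 fold changes of 1.36 to 1.47 and adjusted p of at most 0.0062, and its value moved to an adjusted p of 0.973 (edgeR) with no replicate block. With no replicate block no gene was called in either direction (0 higher and 0 lower of 14916, edgeR; 691 at an unadjusted p under 0.05), and 0 of the 10 genes; the block changed no other call on these genes, and the 6 called genes of the pathway lists lost their calls without it as well (adjusted p = 0.973). With no filter on low counts 624 genes were higher and 491 lower, and 2 of the 10 genes were called, Dusp5 (log2 fold change 0.71, edgeR, adjusted p = 0.0131) beside Dusp4. Leaving out each batch in turn gave 169 to 793 genes higher and 117 to 662 lower, and 1 to 3 of the 10 genes higher. The 3 were reached without batch 3, with Dusp1 (1.13) and Dusp5 (1.12) beside Dusp4. Of values that passed no test, that of Dusp10 ran from -0.30 to 0.043 and that of Spry2 from -0.20 to 0.16 as each batch was left out, with the other sign for Dusp10 without batch 1 and for Spry2 without batch 2. The median over the JNK and p38 list was -0.067 with DESeq2 and with no filter, and that over the other negative regulators was -0.019 without batch 1. With upper-quartile scaling 5 of the 10 genes differed between batches. DESeq2 called 480 genes higher and 407 lower. With at least 10 counts required in every library, Spry4 could not be tested, and DESeq2 gave it no adjusted p. Depth limits Spry4 most: 2 and 3 counts lie behind 2 of its WT values. The other 9 genes had 48 counts or more in every library.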

Other observations

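The genes whose log2 CPM was most like that of Dusp4 over the 6 libraries were Muc15, Hmox1 and Plk3 (Pearson correlation 0.998 to 0.999 among 10147 genes, 262 of them over 0.95), a description chosen after the values were seen. Hmox1, which encodes the stress-induced heme oxygenase 1, was at a mean of 940 CPM in KO and 348 CPM in WT libraries.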
